A study of Drosophila melanogaster with 12 samples.

Results

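The comparison set 3 arrays of whole Drosophila melanogaster taken 4, 5 and 6 hours after yeast returned to the food against 3 arrays taken at hours 1, 2 and 3, which together are 6 of the 12 arrays in the series. Arrays were chosen by the hour in their titles. Flies of both groups had been moved as larvae, early in the last larval stage, to food without yeast and had stayed on it until 4 days after emergence. Each array holds RNA of whole animals of 1 hour on an Affymetrix fly array. The labels name no strain, genotype, sex or number of animals, so all groups differ by hour alone as far as they say. Hour cannot be told apart from time of day, age or order of handling, and flies kept without yeast were not analysed here. The 3 hours of a group are consecutive time points and not repeats of 1 condition. A drift inside a group therefore widens the spread against which the groups were compared.

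Yeast is the main source of protein and sterol for laboratory flies. Without it insulin and TOR signalling are low, autophagy and fat breakdown supply nutrients, and females make few eggs. When yeast returns, the gut makes digestive enzymes, the fat body makes yolk proteins, and cells raise their capacity to make ribosomes and to fold and secrete proteins.

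Among named genes the largest positive differences were in the protease gene Jon25Bii and the yolk genes Yp3 and Yp2. The largest negative one was in CG4716, and Cipc, the starvation-linked gene Sirup, the clock gene tim and the autophagy genes ref(2)P and Atg8a were among the next in the set named here. Other probe sets of Cipc and tim, given below, differed far less. No single probe set passed the test. Intensities under 57.2 were raised to this floor, and 11586 of 13966 fly probe sets that were above it on at least 3 of the 12 arrays were tested. With limma and Benjamini-Hochberg adjustment, 0 probe sets were called higher and 0 lower at 0.05 (0% of those tested each way), and the smallest adjusted p was 0.148. At an unadjusted p under 0.05 there were 407 higher (3.51%) and 446 lower (3.85%). Median centring of the arrays turned this split to 490 higher and 356 lower. The 3 values of hours 4-6 lay wholly above those of hours 1-3 for 574 probe sets (4.95%) and wholly below for 778 (6.72%). The differences below are therefore given as values on the log2 scale with a standard error (SE) and limma's adjusted p, none of which passed. Of all 9224 genes tested, 347 (3.76%) were higher and 359 (3.89%) lower at an unadjusted p under 0.05. Without hour 1, 2, 3, 4, 5 or 6 these counts were 253, 188, 497, 547, 251 and 131 higher. Lower genes then numbered 263, 414, 452, 252, 257 and 331. A list's counts, with all arrays or with 1 left out, are to be read beside these.

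Male transcripts were on some of the arrays of both groups. Mst57Da, a male accessory gland gene, read 67.2, 658.3 and 67.5 at hours 4, 5 and 6, against 76.1, 398.5 and 513.6 at hours 1, 2 and 3. The testis gene Mst84Da read 196.7, 418.8 and 203.6 in hours 4-6, against 188.1, 473.3 and 484.0 in hours 1-3. Hour 5 was thus the only array of hours 4-6 with male transcripts, while hours 2 and 3 both held them. The mean log2 level of 10 gland genes was 6.62 ± 0.695 in hours 4-6 and 6.82 ± 0.523 in hours 1-3 (SD, n = 3 arrays each; exact two-sided permutation p = 0.9, adjusted over 8 array measures 0.9). With 3 arrays against 3 this test cannot go below 0.1. Of the 12 testis genes 1 was lower at an unadjusted p under 0.05, but 7 without hour 1 and 2 without hour 5. When the gland level entered the model as a covariate, again 0 probe sets were called either way. All 853 probe sets with an unadjusted p under 0.05 kept their sign and at least 0.5 of their difference, and 807 of them stayed under 0.05. The mean gland level differed by only -0.205 between the groups, so the covariate could move most differences little. It is a weak check of male content. Each gene below is given with that value where it differs by 0.1 or more, and several of the largest differences are also given within the arrays without male transcripts (hours 4 and 6 against hour 1) and within those with them (hour 5 against hours 2 and 3).

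**Figure D1:**
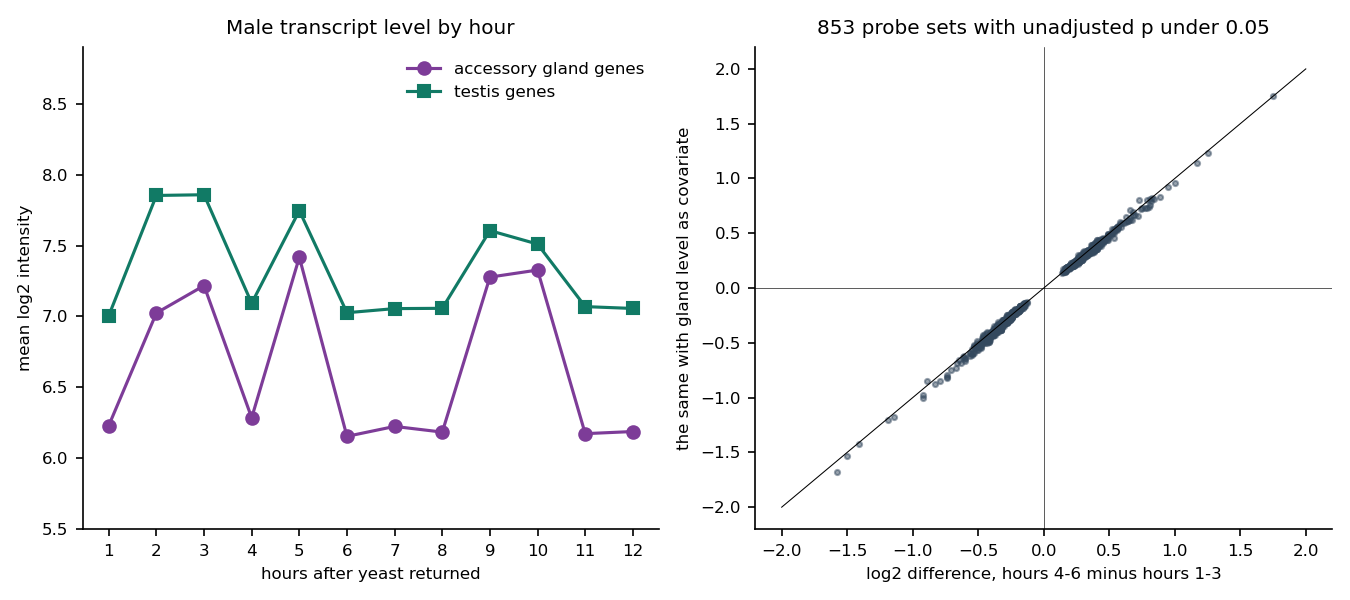
Left, mean log2 intensity of 10 accessory gland genes and 12 testis genes on each array by hour; hours 2, 3, 5, 9 and 10 stand above the other 7. Right, log2 difference of hours 4-6 minus hours 1-3 for the 853 probe sets with unadjusted p under 0.05, without (x axis) and with (y axis) the gland level as covariate; the points lie along the line of equality.

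In the other 7 array measures no exact permutation p was under 0.2. That test compares means, so it cannot show a single odd array. The mean log2 level of spike-in control probe sets was 10.75 at hour 1 and between 9.578 and 10.28 at hours 2 to 6. Its SD was 0.604 in hours 1-3 and 0.0942 in hours 4-6. The part of this in differences that rest on hour 1 was not tested. Actin control probe sets near the 3' end read above those near the 5' end, a sign of RNA quality, by a log2 difference of 0.912 ± 0.146 in hours 4-6 and 1.05 ± 0.104 in hours 1-3 (SD, n = 3; exact permutation p = 0.3, adjusted 0.8). For eIF4A it was 1.43 ± 0.118 in hours 4-6 and 1.61 ± 0.112 in hours 1-3 (exact permutation p = 0.2, adjusted 0.8). Hour 6 had the lowest actin difference of the 6 arrays, at 0.749, and hour 1 the highest, at 1.13. These are also the arrays on which many of the differences below are largest, and the part of RNA quality in them was not tested beyond the covariate fit in the closing section. In whole animals, fewer cells of a type and less RNA per cell cannot be told apart.

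The largest positive difference of all probe sets tested was in a digestive enzyme gene. Jon25Bii, a gut serine protease of the Jonah family, read 998.1, 1068 and 1706 at hours 4, 5 and 6, against 232.3, 366.4 and 566.1 at hours 1, 2 and 3. Every array of hours 4-6 was above every array of hours 1-3, and within hours 1-3 each array was above the one before it. The difference was 1.75 ± 0.30 log2, a 3.35-fold level (SE; limma adjusted p = 0.161). It was 2.49 within arrays without male transcripts and 1.23 within those with them. CG12374, of the metallocarboxypeptidase family, read 2614, 2499 and 3191 in hours 4-6, against 1545, 1271 and 1462 in hours 1-3. Its groups were far apart with little spread inside either, at 0.95 ± 0.14 (limma adjusted p = 0.148), and the difference was 0.90 and 0.87 within the arrays without and with male transcripts. CG6295, of the lipase family, read 525.9, 616.0 and 725.0 in hours 4-6 and 375.4, 306.4 and 372.4 in hours 1-3 (0.82 ± 0.20, limma adjusted p = 0.302).

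The other digestive genes were divided between a few with positive differences and a majority near 0. Of 33 genes of the Jonah and trypsin protease list, 6 were higher and 0 lower at an unadjusted p under 0.05, against 3.76% and 3.89% of all 9224 genes tested, 4 were higher without overlap against 5.11% of all genes (6.59% for lower), and the list's median difference was 0.04 against -0.01 for all genes. Jon25Bi read 79.2, 95.8 and 129.6 in hours 4-6, against 22.8, 29.9 and 40.4 in hours 1-3, the last 3 all under the floor, so its difference of 0.80 ± 0.25 is to the floor. Jon99Ci read 133.4, 139.5 and 185.0 in hours 4-6 and 103.8, 111.1 and 97.9 in hours 1-3 (0.54 ± 0.14). For Jon25Biii the values were 892.3, 1218 and 1607 in hours 4-6 and 960.4, 841.8 and 856.6 in hours 1-3, which overlap, since hour 4 was under hour 1. With 1 array left out, the list's count of higher genes lay between 3 (no hour 3 or no hour 6) and 8 (no hour 1 or no hour 2).

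Starch and sugar digestion showed both directions. The amylase gene Amy-d read 348.2, 326.4 and 555.7 in hours 4-6, against 293.4, 197.6 and 269.9 in hours 1-3 (0.67 ± 0.19, limma adjusted p = 0.399). Mal-A5, a maltase, was lower on every array of hours 4-6, at 214.9, 203.2 and 203.8, against 314.2, 274.1 and 254.6 in hours 1-3 (-0.43 ± 0.09, limma adjusted p = 0.273). LManVI, a lysosomal-type alpha-mannosidase, read 218.0, 182.0 and 229.9 in hours 4-6 and 132.0, 145.2 and 165.9 in hours 1-3. These were the 3 with an unadjusted p under 0.05 among 17 genes of carbohydrate digestion, a list of amylases, maltases, alpha-mannosidases and related enzymes. Among 16 lipase genes, 3 were higher (18.8%, against 3.76% of all genes) and 0 lower. They were CG6295, CG31872 at 0.47 ± 0.12 and mag, a secreted gut lipase, at 0.41 ± 0.13.

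The 3 yolk protein genes, which the female fat body and ovary express and the egg takes up, were higher on all arrays of hours 4-6. Yp3 read 2267, 1852 and 3058 in hours 4-6, against 859.6, 851.5 and 1529 in hours 1-3 (1.17 ± 0.24, limma adjusted p = 0.254). Yp2 read 825.8, 1006 and 1734 in hours 4-6, against 428.5, 690.4 and 608.1 in hours 1-3 (1.00 ± 0.33, limma adjusted p = 0.477). Yp1 read 957.2, 1008 and 1797 in hours 4-6, against 632.3, 578.8 and 739.7 in hours 1-3 (0.89 ± 0.30, limma adjusted p = 0.49). Yp3 differed from the other two at hour 3, where it was already well above hours 1 and 2, and in all 3 genes hour 6 was the highest of the 6 arrays. Without hour 6 only 1 of the 3 kept an unadjusted p under 0.05. The differences were 1.61, 1.48 and 1.05 for Yp3, Yp2 and Yp1 within the arrays without male transcripts, and 0.70, 0.63 and 0.62 within those with them. Yolk genes are female-specific, and the part of male animals in these differences was not tested beyond these values.

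Egg shell genes, made by the follicle cells late in egg formation, showed no such shift. Of 15 chorion and vitelline membrane genes 0 had an unadjusted p under 0.05 in either direction, and their median difference was 0.03. The vitelline membrane gene Vm26Aa read 365.6, 461.9 and 658.3 in hours 4-6 and 318.0, 437.0 and 357.1 in hours 1-3, an overlap (0.39 ± 0.31). Of 39 germ line genes 0 were higher and 2 lower, stau at -0.33 ± 0.10 and egl at -0.34 ± 0.14. That is 5.13% lower, near the 3.89% of all genes. Both encode parts of the machinery that carries mRNA in the oocyte and in other cells.

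Of 22 fat body genes, a list that takes in yolk genes such as Yp3, 5 were higher (22.7%, against 3.76% of all genes) and 0 lower at an unadjusted p under 0.05. The count thus overlaps that of the yolk genes and is no separate result. Summed over the list, intensity was 12146 at hour 1 and 16854 at hour 6. Over the 3 yolk genes it was 1920 and 6589. Among the 12 largest positive differences were also smp-30 and MtnB. The regucalcin-like gene smp-30 read 157.9, 158.0 and 242.0 in hours 4-6 and 104.2, 97.6 and 119.3 in hours 1-3 (0.77 ± 0.17, limma adjusted p = 0.288). MtnB, a metallothionein that binds copper and other metals, read 185.4, 162.9 and 193.0 in hours 4-6 and 74.2, 106.4 and 132.0 in hours 1-3 (0.83 ± 0.18, limma adjusted p = 0.288). In MtnB each of hours 1-3 was above the one before it, and hours 4-6 lay close together. The lipoprotein precursor gene apolpp overlapped between groups on both of its probe sets. One read 516.4, 504.1 and 812.6 in hours 4-6 and 537.6, 285.3 and 457.6 in hours 1-3 (0.53 ± 0.27), the other differed by 0.44 ± 0.21. The remaining genes among the 12 with the largest positive differences were CG11878 (0.81 ± 0.19), CG15818 (0.79 ± 0.23), CNBP (0.75 ± 0.20) and the fatty acyl-CoA reductase gene CG17560 (0.73 ± 0.19), with limma adjusted p from 0.302 to 0.399. CNBP had 2 further probe sets, at 0.33 ± 0.09 and -0.01 ± 0.07.

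**Figure D2:**
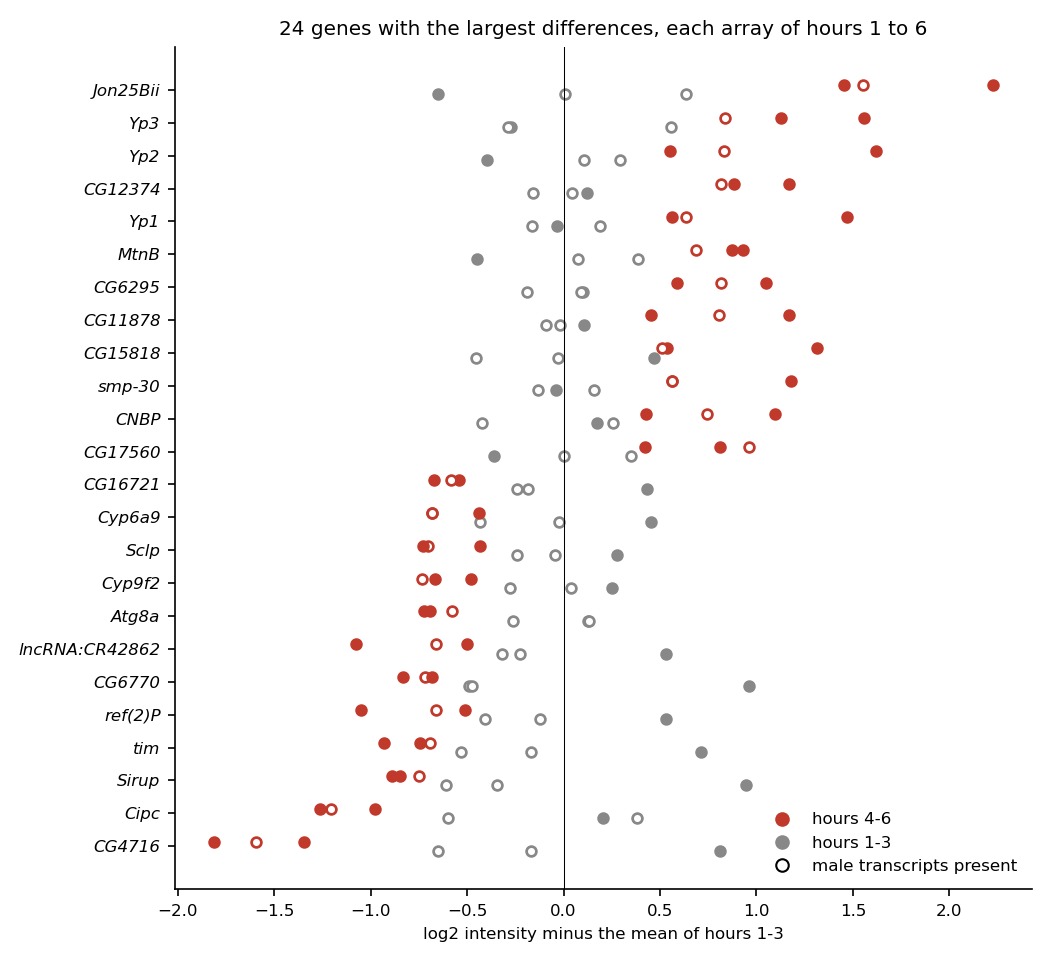
Log2 intensity minus the gene's mean over hours 1-3 (x axis) on each of the 6 arrays for the 12 largest positive and 12 largest negative differences that met the conditions given under processing (y axis); red points are hours 4-6, grey points hours 1-3, and open points arrays with male transcripts. Hour 1, the closed grey point, lies farthest from hours 4-6 for genes such as Sirup, CG6770 and tim.

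Lists of genes that make, fold and secrete proteins differed in how many of their members had a positive difference, which 4364 of all 9224 genes tested (47.3%) had. In the list of the secretory pathway and endoplasmic reticulum folding, 37 of 40 genes had a positive difference, 13 were higher and 0 lower at an unadjusted p under 0.05, and the median was 0.24. Over all genes 3.76% were higher and 3.89% lower at that level, with a median of -0.01, and no gene of these lists passed adjustment. Sec61gamma, a subunit of the channel through which new proteins enter the endoplasmic reticulum, read 665.6, 807.0 and 982.3 in hours 4-6, against 374.9, 542.1 and 662.9 in hours 1-3 (0.66 ± 0.24). Its hour 3 was almost as high as hour 4. Sec61beta, of the same channel, read 977.2, 1141 and 1367 in hours 4-6 and 729.7, 709.5 and 965.9 in hours 1-3 (0.54 ± 0.16). The disulphide isomerase gene Pdi read 1773, 1757 and 2044 in hours 4-6 and 1259, 1534 and 1601 in hours 1-3 (0.35 ± 0.09, limma adjusted p = 0.377). ERp60, a related isomerase, read 1237, 1143 and 1403 in hours 4-6 and 777.4, 918.0 and 1083 in hours 1-3 (0.45 ± 0.13). Leaving out hour 3 or hour 4 raised the count of 13 to 22 or 21. Leaving out hour 1, 2, 5 or 6 lowered it to 6, 7, 8 or 5. Over all genes the count of 347 rose to 497 or 547 without hour 3 or hour 4. It fell to 253, 188, 251 or 131 without hour 1, 2, 5 or 6, so the direction of these shifts is not particular to the list.

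All 8 subunits of the cytosolic chaperonin, which folds actin and tubulin among others, had a positive difference, with a median of 0.34. At an unadjusted p under 0.05, 6 were higher (75%, against 3.76% of all genes). CCT5 read 979.9, 1003 and 1120 in hours 4-6, against 516.4, 764.2 and 937.2 in hours 1-3 (0.52 ± 0.17). It was the only subunit whose groups did not overlap. CCT7 read 408.8, 522.6 and 626.5 in hours 4-6 and 306.9, 336.8 and 449.9 in hours 1-3 (0.51 ± 0.17), and its hour 4 was under its hour 3. The same dip from hour 3 to hour 4 was present in CCT1, CCT2, CCT3, CCT4 and CCT8. Without hour 1 or without hour 6 only 1 subunit had an unadjusted p under 0.05.

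Of 54 ribosome biogenesis genes 50 had a positive difference, with 12 higher (22.2%, against 3.76% of all genes) and 1 lower (1.85%, against 3.89%) at an unadjusted p under 0.05 and a median of 0.20. The nucleolar gene mod read 883.7, 876.2 and 1194 in hours 4-6, against 508.6, 621.9 and 787.0 in hours 1-3 (0.63 ± 0.21). Nopp140, a nucleolar chaperone, read 659.5, 803.5 and 943.5 in hours 4-6 and 431.8, 463.0 and 749.5 in hours 1-3 (0.58 ± 0.19). Fib, the nucleolar RNA methyltransferase fibrillarin, read 856.9, 1094 and 1239 in hours 4-6 and 627.8, 800.4 and 910.1 in hours 1-3 (0.45 ± 0.15). In Nopp140 and Fib hour 3 was above hour 4, so the groups overlap although 2 arrays of each lie well apart. Leaving out hour 3 or hour 4 raised the count of 12 to 26 or 21, and leaving out hour 1 or 6 lowered it to 4 and hour 2 to 7. The count over all genes moved in the same directions.

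The cytosolic ribosome itself did not share this. Of 26 cytosolic ribosomal protein genes 0 had an unadjusted p under 0.05, and differences ran from -0.15 to 0.09 with a median of -0.03. Mitochondrial ribosomal protein genes had 60 of 67 positive differences, 10 higher (14.9%, against 3.76% of all genes) and 0 lower, and a median of 0.14. The clearest was mRpL30, at 414.8, 441.5 and 451.7 in hours 4-6, against 327.3, 326.4 and 373.2 in hours 1-3 (0.35 ± 0.08, limma adjusted p = 0.301). Of 18 tRNA synthetase genes, whose enzymes charge tRNAs with amino acids, 17 had a positive difference and 4 were higher (22.2%, against 3.76%). Among the 4 were ArgRS at 0.38 ± 0.14 and SerRS at 0.34 ± 0.12 (a second SerRS probe set at -0.07 ± 0.08). Of 31 translation factors 6 were higher (19.4%, against 3.76% of all genes) and 0 lower. The elongation factor subunit eEF1delta read 775.9, 897.4 and 1115 in hours 4-6 and 606.5, 469.3 and 772.1 in hours 1-3 (0.61 ± 0.17). Proteasome genes were near the background at this stage, with 1 of 27 higher and a median of 0.06. Leaving out hour 4 raised the count to 20 for mitochondrial ribosomal genes, 6 for tRNA synthetases and 4 for the proteasome, whose count was 0 with any other array left out. Leaving out hour 6 lowered it to 3, 0 and 2 for mitochondrial ribosomal, tRNA synthetase and translation factor genes, and leaving out hour 1 to 4, 1 and 4. For tRNA synthetases it was also 1 without hour 2 and 2 without hour 5, and for translation factors 3 without hour 2 and 4 without hour 5. The count over all genes also rose without hour 4 and fell without hour 1, 2, 5 or 6.

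**Figure D3:**
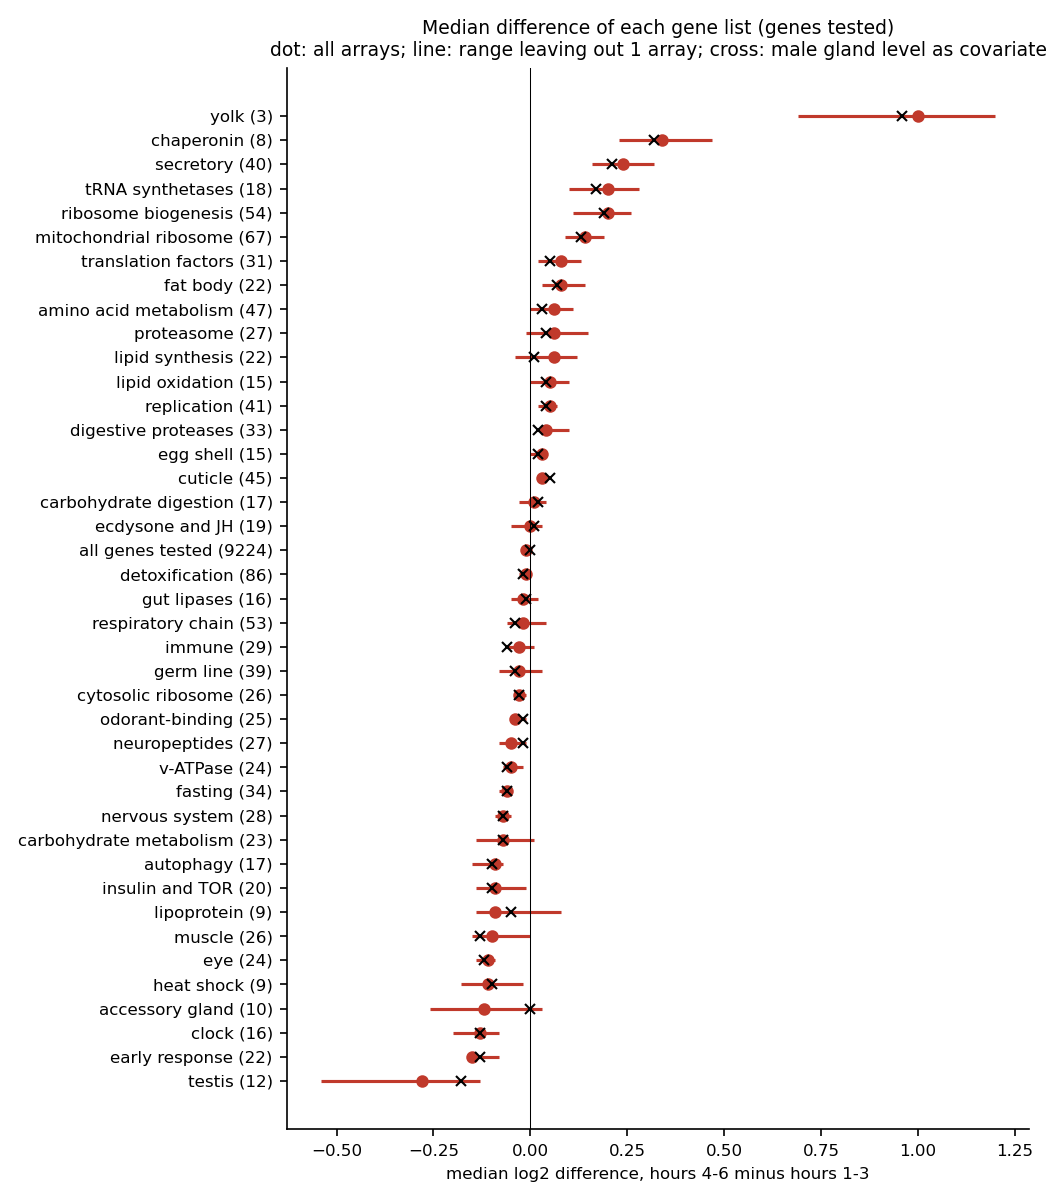
Median log2 difference, hours 4-6 minus hours 1-3, of each gene list (x axis; genes tested in brackets on the y axis). Dots use all arrays, lines span the medians with 1 of the 6 arrays left out, and crosses have the male gland level as covariate; the yolk, chaperonin and secretory lists stand highest and the testis list lowest.

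Among genes of amino acid and one-carbon metabolism 7 of 47 were higher (14.9%, against 3.76% of all genes) and 1 lower (2.13%, against 3.89%). Shmt, which passes a carbon unit from serine to folate, read 397.5, 467.2 and 672.0 in hours 4-6, against 284.8, 280.9 and 396.8 in hours 1-3 (0.66 ± 0.24). Ahcy, which clears S-adenosylhomocysteine, read 1446, 1491 and 1811 in hours 4-6 and 913.2, 1096 and 1442 in hours 1-3 (0.48 ± 0.15). For both genes hour 3 was almost level with hour 4. The pyrimidine synthesis gene r-l read 337.2, 418.7 and 471.5 in hours 4-6 and 237.0, 241.2 and 361.9 in hours 1-3 (0.56 ± 0.17). The count of 7 was 4 without hour 1 or 2, 2 without hour 6 and 10 without hour 4.

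Single genes of autophagy and fasting had negative differences, while the medians of their lists lay near 0. Atg8a, the ubiquitin-like protein that coats the forming autophagosome, read 926.0, 1026 and 946.3 in hours 4-6, against 1669, 1676 and 1277 in hours 1-3. All arrays of hours 4-6 were under all arrays of hours 1-3, with hour 3 in between (-0.66 ± 0.11, a 0.631-fold level, limma adjusted p = 0.161). It was -0.83 within arrays without male transcripts and -0.51 within those with them. The autophagy adaptor gene ref(2)P, the fly p62, read 181.1, 236.7 and 263.3 in hours 4-6 and 541.4, 344.5 and 282.3 in hours 1-3 (-0.74 ± 0.21, limma adjusted p = 0.399). The kinase gene Atg1, which starts autophagy, read 123.6, 115.8 and 138.4 in hours 4-6 and 226.9, 158.4 and 134.9 in hours 1-3 (-0.43 ± 0.20), and its hour 6 was above hour 3. Of 17 autophagy genes 16 had a negative difference (94.1%, against 52.5% of all genes), with a median of -0.09. Of these 2 were lower at an unadjusted p under 0.05 (11.8%, against 3.89% of all genes), 4 without hour 2 and 5 without hour 3.

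In the list of fasting-linked genes 7 of 34 were lower (20.6%, against 3.89% of all genes) and 2 higher (5.88%, against 3.76%) at an unadjusted p under 0.05, 12 had a positive difference, and the median was -0.06. Pepck1, a key enzyme of glucose synthesis, read 840.2, 969.7 and 1212 in hours 4-6, against 1594, 1237 and 1619 in hours 1-3 (-0.56 ± 0.19). The main fat body triglyceride lipase gene bmm read 170.6, 162.4 and 174.2 in hours 4-6 and 273.6, 206.4 and 181.3 in hours 1-3 (-0.36 ± 0.12), with hour 3 already close to hours 4-6. Lk6, a kinase of the cap-binding protein eIF4E, read 1699, 1574 and 1455 in hours 4-6 and 2196, 2577 and 1982 in hours 1-3 on its brighter probe set (-0.51 ± 0.15). Its other probe set overlapped between groups (-0.24 ± 0.39; -0.38 with the gland covariate). The 2 higher genes were the gut lipase gene mag and Shmt, an enzyme of one-carbon metabolism. Lip4, a lipase induced by fasting, did not differ clearly, at 139.6, 128.6 and 134.6 in hours 4-6 and 150.7, 168.3 and 138.5 in hours 1-3 (-0.18 ± 0.09). The count of 7 lower genes was 4 without hour 4.

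Insulin and TOR genes had 3 of 20 lower (15%, against 3.89% of all genes), 0 higher and a median of -0.09. Without hour 1 this median was -0.01. The list's mean log2 level was 7.61 at hour 1 and 7.29 at both hours 2 and 3. ImpL2, a secreted protein that binds insulin-like peptides, read 758.2, 851.8 and 737.4 in hours 4-6, against 945.7, 930.6 and 1035 in hours 1-3 (-0.31 ± 0.09, limma adjusted p = 0.441). REPTOR-BP, the partner of a transcription factor that acts when TOR is low, read 51.9, 60.7 and 52.7 in hours 4-6 and 232.1, 92.3 and 63.2 in hours 1-3. The widest gap was between hours 1 and 2, and 2 arrays of hours 4-6 were under the floor, so -0.92 ± 0.33 understates it. Without hour 1 the difference was -0.39. REPTOR itself read 262.1, 177.2 and 169.4 in hours 4-6 and 369.6, 243.5 and 201.8 in hours 1-3, which overlap (-0.40 ± 0.23). The insulin receptor gene InR read 148.4, 141.3 and 146.2 in hours 4-6 and 252.6, 146.5 and 150.1 in hours 1-3. Only hour 1 stood apart, and without it the difference of InR was -0.03 instead of -0.29. The transcription factor gene foxo (-0.13 ± 0.10) and the insulin-like peptide gene Ilp2 (0.01 ± 0.12) overlapped between groups. The list's count of lower genes was 2 without hour 1 or 5 and 6 without hour 3.

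Of 23 genes of sugar metabolism 4 were lower (17.4%, against 3.89% of all genes) and 1 higher (4.35%, against 3.76%). Among them were Pepck1, the hexokinase Hex-A at -0.43 ± 0.15 and the trehalose transporter Tret1-1 at -0.29 ± 0.11 (a second probe set at -0.11 ± 0.12). In fat metabolism AcCoAS, which makes acetyl-CoA from acetate, read 570.0, 618.6 and 683.0 in hours 4-6, against 838.0, 871.7 and 818.2 in hours 1-3 (-0.44 ± 0.12). Fad2, a desaturase of female cuticle hydrocarbons, read 752.8, 1383 and 1134 in hours 4-6 and 640.3, 427.4 and 833.4 in hours 1-3, which overlap (0.79 ± 0.27). Of 15 fatty acid oxidation genes 1 was higher (6.67%, against 3.76% of all genes) and 0 lower, and 0 were higher without hour 2, 5 or 6. Sugar genes numbered 2 lower without hour 1. Of 22 lipid synthesis genes 1 was higher (4.55%, against 3.76% of all genes) and 2 lower (9.09%, against 3.89%). Without hour 4 the higher ones numbered 4, and the count over all genes rose as well.

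The gene with the largest negative difference above the floor was CG4716, at 137.8, 115.7 and 99.7 in hours 4-6, against 613.3, 311.0 and 222.6 in hours 1-3. Each of the 6 arrays was under the one before it (-1.58 ± 0.31, limma adjusted p = 0.254; -1.68 with the gland covariate). The difference of CG4716 was -2.39 within arrays without male transcripts and -1.18 within those with them. Sirup, named as a starvation-upregulated gene and known for assembly of respiratory complex II, read 122.7, 135.5 and 126.5 in hours 4-6 and 438.8, 179.2 and 149.0 in hours 1-3. Without hour 1 its difference was -0.35 instead of -0.83, and within arrays without and with male transcripts -1.82 and -0.27. CG6770 had the same shape, at 541.1, 585.8 and 600.0 in hours 4-6 and 1872, 683.9 and 692.8 in hours 1-3, and a difference of -0.26 instead of -0.74 without hour 1. lncRNA:CR42862 differed by -0.74 ± 0.23 (a second probe set, with overlap, by -0.51 ± 0.23), Sclp by -0.62 ± 0.13 and CG16721 by -0.60 ± 0.16, with limma adjusted p from 0.294 to 0.442.

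Some clock genes had negative differences. Timeless (tim), which with period represses the clock's activators, read 178.4, 210.6 and 203.2 in hours 4-6, against 557.3, 303.1 and 235.4 in hours 1-3 (-0.79 ± 0.24, limma adjusted p = 0.442). It was lowest at hour 4 and higher again by hour 12, at 378.9. Without hour 1 the difference of tim was -0.44. A second probe set of tim, near the floor, differed by -0.15 ± 0.11. The activator gene Clk read 63.8, 76.2 and 67.8 in hours 4-6 and 115.2, 88.9 and 80.6 in hours 1-3 (-0.44 ± 0.13). The repressor gene cwo read 278.1, 260.0 and 278.9 in hours 4-6 and 587.9, 363.4 and 293.5 in hours 1-3 (-0.55 ± 0.20), and its second probe set overlapped (-0.17 ± 0.10). Cipc, related to a vertebrate inhibitor of CLOCK, read 171.0, 177.6 and 208.5 in hours 4-6 and 473.1, 533.3 and 270.8 in hours 1-3 (-1.14 ± 0.22, limma adjusted p = 0.254). It differed by -1.33 and -1.10 within arrays without and with male transcripts. A second probe set of Cipc differed by only -0.10 ± 0.09. On the first, hour 2 was above hour 1, while in tim and cwo it was well under it. For per the values overlapped, at 145.8, 164.4 and 145.8 in hours 4-6 and 150.5, 149.3 and 169.4 in hours 1-3 (-0.04 ± 0.10). Of 16 genes on the clock list 4 were lower (25%, against 3.89% of all genes) and 0 higher. The count of lower genes was 7 without hour 2 and 3 without hour 1. The list's median was -0.13, and -0.08 without hour 1. The 4 include sr, which is also counted among the early response genes below. The difference of -1.14 for Cipc is not part of this count. Time of day moved with the hours on all arrays, and its part cannot be told apart from that of food.

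Of 24 eye genes 21 had a negative difference (87.5%, against 52.5% of all genes). At an unadjusted p under 0.05, 6 were lower (25%, against 3.89% of all genes) and 0 higher, none passed adjustment, and the median was -0.11. The gene t (tan), whose enzyme recycles the transmitter histamine in the eye, read 139.5, 142.1 and 142.1 in hours 4-6, against 232.0, 213.9 and 178.6 in hours 1-3 (-0.55 ± 0.10, limma adjusted p = 0.241). Gbeta76C, the G protein beta subunit of phototransduction, read 179.0, 169.8 and 172.6 in hours 4-6 and 245.8, 253.0 and 214.0 in hours 1-3 (-0.45 ± 0.10, limma adjusted p = 0.288). The photoreceptor dehydrogenase gene Pdh read 225.4, 233.0 and 246.9 in hours 4-6 and 323.8, 287.6 and 327.7 in hours 1-3 (-0.41 ± 0.13). In all 3 genes the 3 values of hours 4-6 lay close together and under all of hours 1-3. Of the 6, 3 were left when hour 1 or hour 5 was dropped and 4 when hour 2 was.

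Of 28 nervous system genes 24 had a negative difference (85.7%, against 52.5%). At an unadjusted p under 0.05, 3 were lower (10.7%, against 3.89% of all genes) and 1 higher (3.57%, against 3.76%). The higher one was ple, the tyrosine hydroxylase that makes L-DOPA, at 286.9, 304.0 and 324.5 in hours 4-6, against 232.6, 230.6 and 270.4 in hours 1-3 (0.32 ± 0.09). Ddc, the next enzyme of that pathway, read 139.8, 126.1 and 139.9 in hours 4-6 and 199.1, 150.6 and 154.5 in hours 1-3, the opposite direction (-0.30 ± 0.12). Of 26 muscle genes 2 were lower (7.69%, against 3.89% of all genes), Zasp66 and tn, and 1 was higher (3.85%, against 3.76%). Zasp66 read 1650, 1998 and 1673 in hours 4-6 and 2314, 2270 and 2262 in hours 1-3 (-0.37 ± 0.10). Leaving out an array moved the nervous system count of 3 to between 0 (no hour 1 or no hour 5) and 5 (no hour 3), and muscle genes numbered 4 lower without hour 2, 3 or 5.

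Of 29 immune genes 3 were lower (10.3%, against 3.89% of all genes) and 2 higher (6.9%, against 3.76%) at an unadjusted p under 0.05. The lower ones numbered 0 without hour 1, 4 or 5 and 1 without hour 2, and the higher ones 4 without hour 1, 1 without hour 2 and 0 without hour 6. DptB, an antimicrobial peptide gene, read 223.6, 261.3 and 284.7 in hours 4-6, against 603.6, 1539 and 210.9 in hours 1-3. Hours 1 and 2 were high and hour 3 was as low as hours 4-6, so the groups overlapped (-1.19 ± 0.49, limma adjusted p = 0.608). Mtk had the same shape, at 280.0, 267.5 and 279.7 in hours 4-6 and 483.7, 645.1 and 238.8 in hours 1-3, as had the secreted amidase gene PGRP-SB1 at 184.5, 188.5 and 187.2 in hours 4-6 and 234.3, 333.0 and 178.9 in hours 1-3. All 3 had their highest value at hour 2. The antifungal peptide gene Drs was bright on all arrays, with 3504, 3440 and 3287 in hours 4-6 and 3998, 3900 and 3582 in hours 1-3 (-0.17 ± 0.08). SPE, a protease that activates the Toll ligand, read 340.4, 333.2 and 418.4 in hours 4-6 and 293.6, 290.9 and 297.5 in hours 1-3 (0.30 ± 0.10).

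**Figure D4:**
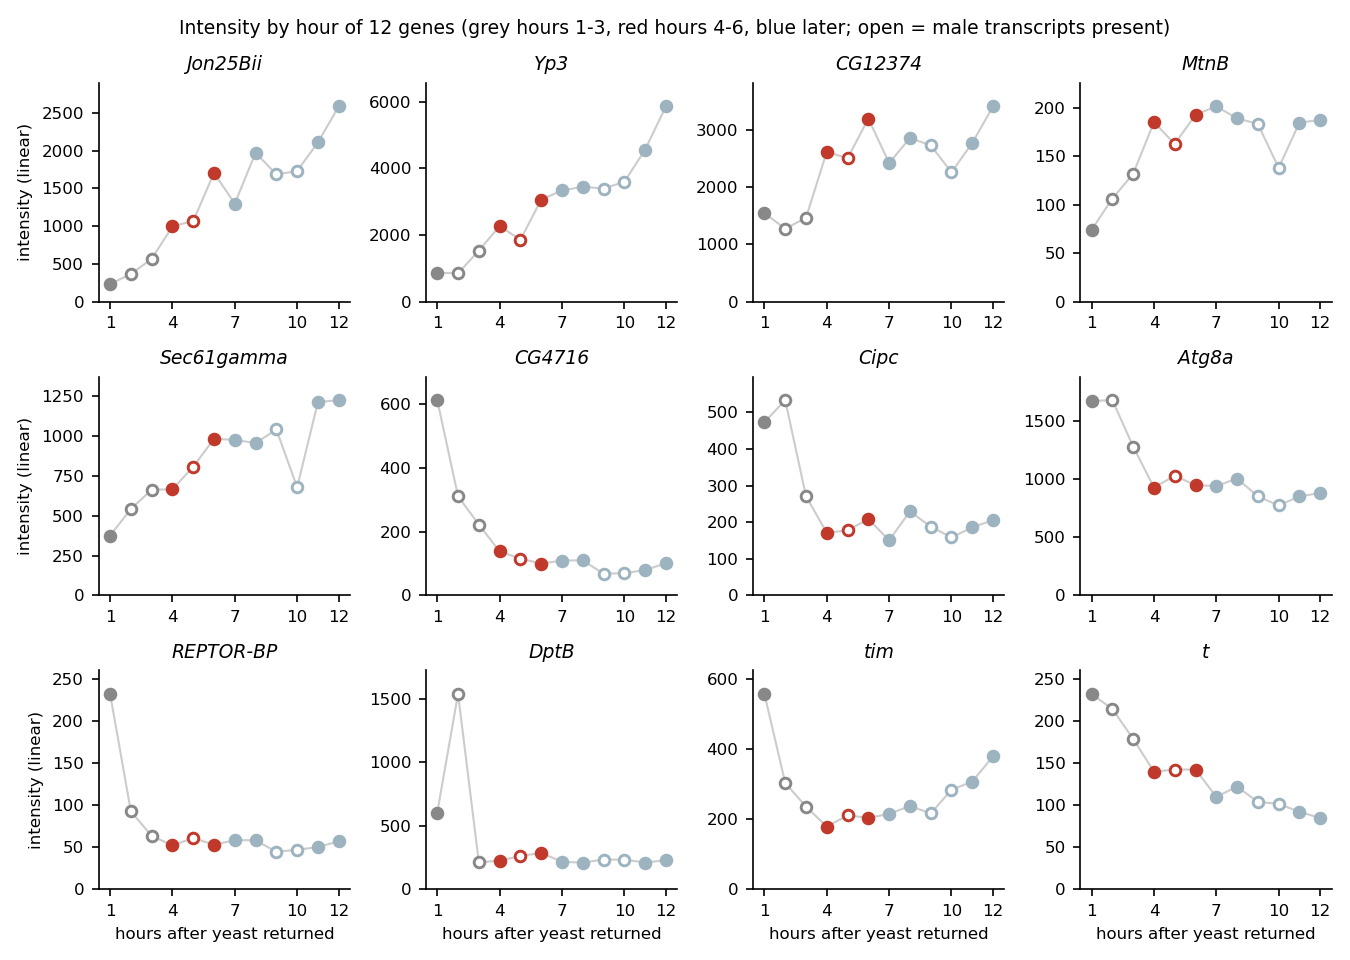
Intensity (y axis, linear, from 0) by hour after yeast returned (x axis) for 12 genes, 1 array an hour; grey points are hours 1-3, red points hours 4-6, blue points later hours, and open points arrays with male transcripts. REPTOR-BP and tim are highest at hour 1, DptB at hour 2, and Jon25Bii and Yp3 at hour 12.

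Among stress genes the co-chaperone genes stv and DnaJ-1 had negative differences. The first read 218.0, 226.3 and 220.2 in hours 4-6, against 346.1, 264.4 and 286.3 in hours 1-3 (-0.42 ± 0.12), though another stv probe set overlapped (0.09 ± 0.08). DnaJ-1 read 382.5, 406.1 and 449.2 in hours 4-6, against 506.2, 473.6 and 510.3 in hours 1-3 (-0.27 ± 0.08). They were the 2 of 9 heat shock genes with an unadjusted p under 0.05 (22.2%, against 3.89% of all genes lower). Of 22 early response genes 20 had a negative difference (90.9%, against 52.5% of all genes) and 4 were lower (18.2%, against 3.89%). The transcription factor gene sr read 94.2, 88.1 and 80.3 in hours 4-6 and 132.5, 123.9 and 106.1 in hours 1-3 (-0.46 ± 0.14). The phosphatase gene puc, a target and inhibitor of JNK signalling, read 98.2, 104.6 and 106.0 in hours 4-6 and 179.4, 133.2 and 113.2 in hours 1-3 (-0.44 ± 0.15). Hr38, an activity-linked nuclear receptor gene, was highest at hour 3 and overlapped between groups (-0.26 ± 0.32; -0.16 with the gland covariate). The early response count of 4 was 2 without hour 1.

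Of 86 detoxification genes 11 were lower (12.8%, against 3.89% of all genes) and 6 higher (6.98%, against 3.76%) at an unadjusted p under 0.05, and the median was -0.01. The P450 gene Cyp9f2 read 190.8, 181.8 and 216.7 in hours 4-6, against 359.6, 310.8 and 249.5 in hours 1-3 (-0.63 ± 0.15), and a second probe set differed by -0.56 ± 0.11. Cyp6g1 (-0.54 ± 0.14) and Cyp6a9 (-0.60 ± 0.18), also P450 genes, had non-overlapping groups as well. The glutathione transferase gene GstD5 was higher, at 93.9, 83.2 and 82.0 in hours 4-6 and from 59.8 up in hours 1-3, with no overlap (0.39 ± 0.09, limma adjusted p = 0.302), and GstE9 differed by 0.40 ± 0.14. The count of 11 was 7 without hour 5 and 6 without hour 6, and that of 6 was 3 without hour 2 and 2 without hour 6.

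Hour 3 held intermediate values for many of these genes. When hour 3 was left out, limma called 9 probe sets higher and 14 lower, and these included Jon25Bii (2.06 ± 0.27, limma adjusted p = 0.0278), Yp3 (1.45 ± 0.21, 0.0278) and MtnB (1.02 ± 0.16, 0.0392). Lower among them were Atg8a (-0.79 ± 0.09, limma adjusted p = 0.0129), Cipc on 1 probe set (-1.44 ± 0.17, 0.0129), CG4716 (-1.90 ± 0.29, 0.03), DptB (-1.92 ± 0.28, 0.0278), t (-0.66 ± 0.10, 0.0278) and Cpr67B, a cuticle protein gene (-0.66 ± 0.11, 0.0392). These calls compare hours 4-6 with hours 1 and 2 only, and for many genes the array left out was the one nearest to hours 4-6. Leaving out any other single array of hours 1 to 6 gave 0 calls. DptB was called although its groups overlapped with hour 3 in. The calls are therefore no support for a difference from all of hours 1-3. Of the 24 genes with the largest differences, 11 had an hour 3 value nearer to the mean of hours 4-6 than to that of hours 1 and 2. Their largest single step in the direction of the difference lay between hours 1 and 2 in 10 genes, between hours 2 and 3 in 3, between hours 3 and 4 in 7 and between hours 5 and 6 in 4. These counts were not made over all probe sets. Within the arrays without male transcripts, hours 4 and 6 were set against hour 1 alone. The differences there were 1.35 for MtnB, -2.02 for REPTOR-BP and -1.82 for Sirup. Without hour 1, and with all other arrays, they were 0.6, -0.39 and -0.35. The spread of hour 1 itself cannot be estimated, so no call is drawn from this fit. For REPTOR-BP the floor also removed most of the spread, since hours 4, 6, 7, 8, 11 and 12 read from 50 to 58.2, under or just above it.

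After hour 6 most of the 24 genes with the largest differences stayed beyond their hours 1-3 levels. In 19 of the 24 genes every array of hours 7 to 12 lay beyond all arrays of hours 1-3 in the direction of the difference. The 24 genes were picked for large differences without overlap from the same hours 1-3 arrays, which favours such a count. It was not made over all probe sets, so whether 19 of 24 is more than the selection alone would give was not tested. Atg8a read between 771.6 and 1003 at hours 7 to 12, and CG12374 between 2255 and 3404. At hour 12 Jon25Bii read 2587 and Yp3 5854, their highest values. The difference between hours 10-12 and hours 7-9 was 0.38 for Jon25Bii, 0.43 for Yp3, 0.06 for CG12374 and -0.16 for Atg8a. A test of the early minus the late difference in the same model called 0 probe sets (limma, 436 of 11586 at an unadjusted p under 0.05), and its adjusted p was 0.999 for each of the 24 genes. No gene was therefore shown to respond differently in the early step than in the late one.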

How the data were processed

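RNA from whole flies was measured on 1 array for each of 12 hours. Per the labels, the authors put the arrays through dChip, which normalizes on probes of invariant rank difference, and the deposited intensity values are on a linear scale. Its version and background model were not given in the labels. Precision is limited by the number of arrays, since depth does not apply. How many flies stand behind an array is not said, so the p-values cover spread among these arrays only, which may be technical.

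The 20th percentile of the table (57.2) served as a floor, and log2 was taken after it. Probe sets above it on at least 3 of 12 arrays were tested with R 4.3.3 and limma 3.58.1. The 12 arrays entered as 4 windows of 3 hours, leaving 8 residual degrees of freedom, and hours 4-6 were set against hours 1-3. Benjamini-Hochberg adjustment ran over all 11586 probe sets, with a threshold of 0.05. The platform annotation gave 12443 probe sets 1 gene symbol, 327 several and 1196 none, checked against a RefSeq gene table (assembly Release 6 plus ISO1 MT). In gene lists a gene is its brightest tested probe set. The procedure was tested on simulated data. Members and lists were chosen with earlier results of these data known, so no list was given a set test.

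Named genes are the 12 largest differences each way among probe sets with 1 symbol that were above the floor on all 6 arrays, had non-overlapping groups and an unadjusted p under 0.05, were not on the gland or testis lists, and kept 0.5 of the difference with the gland covariate. Added were the 3 lowest-p genes of every list, and a fixed set that included InR, foxo, Ilp2, bmm, tim, per and the yolk genes. Any other gene was chosen after its values were seen. Myc and Amy-p were not analysed here. A cut at 1 log2 in the gland level left hour 2 out, so arrays with male transcripts were split off at the widest gap in that level, between 6.28 and 7.02, a choice made after seeing the data. No promoter or protein sequence was used here.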

Additional observations from a re-analysis of the deposited data

How the results depend on the processing

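Quantile and median normalization, no floor, a floor at the 40th percentile, no filter, a strict filter, another variance model, hours 1 to 6 alone, the gland covariate and the actin covariate each gave 0 calls higher and 0 lower. With one array left out, calls numbered between 0 and 9 higher and between 0 and 14 lower, all of them without hour 3. Probe sets with an unadjusted p under 0.05 then numbered between 155 (without hour 6) and 642 (without hour 4) higher, with 227 without hour 2, and between 320 and 582 lower. Arrays without male transcripts gave 1 call higher, 2 lower, and 962 lower at an unadjusted p under 0.05. Arrays with male transcripts gave 115 higher and 155 lower at that level, with hour 5 alone standing for hours 4-6 and assumed to vary like the other windows. The actin covariate left 231 higher, and the testis covariate, added after seeing the data, gave 1 call lower (CG4716) and 792 lower at that level. Median normalization gave 490 higher and 356 lower. The cause was not tested. No paired analysis was possible because the labels give the hours no replicate numbers. Dim probe sets near the floor understate differences.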

Other observations

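Few genes of odorant-binding proteins, hormones and neuropeptides differed between hours 4-6 and hours 1-3. Of 25 odorant-binding protein genes 2 were higher without overlap (8%, against 5.11% of all genes) and 3 lower (12%, against 6.59%). At an unadjusted p under 0.05, 1 was higher and 1 lower (4% each, against 3.76% and 3.89% of all genes). Obp99b, made in the fat body as well, read 138.0, 126.0 and 137.8 in hours 4-6, against 108.2, 107.5 and 120.4 in hours 1-3 (0.26 ± 0.08, limma adjusted p = 0.442). Obp56g read 205.2, 265.1 and 232.8 in hours 4-6 and 272.4, 362.7 and 332.5 in hours 1-3 (-0.46 ± 0.14, limma adjusted p = 0.442). Of 19 ecdysone and juvenile hormone genes 0 passed that level in either direction. Among 27 genes of feeding-related neuropeptides and their receptors 2 were lower (7.41%, against 3.89% of all genes), AstC at -0.20 ± 0.07 and Dh31 at -0.35 ± 0.15. AkhR, the receptor of the fly's fat-mobilising hormone, read 57.9, 59.8 and 78.2 in hours 4-6 and 111.1, 71.0 and 69.0 in hours 1-3, which overlap.

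Genes of the respiratory chain and of the vacuolar ATPase, a proton pump, had small differences as well. Of 53 respiratory chain and ATP synthase genes 0 were higher and 0 lower at an unadjusted p under 0.05, and differences ran from -0.17 to 0.20. Of 24 vacuolar ATPase genes the same held, with differences from -0.22 to 0.13. Negative differences were found in 34 of the 53 (64.2%) and 18 of the 24 (75%), against 52.5% of all genes. Of 41 replication and cell cycle genes 4 were higher (9.76%, against 3.76% of all genes) and 0 lower. The count of 4 lay between 1 (no hour 2 or no hour 6) and 6 (no hour 4) when an array was left out. The E2F partner gene Dp read 309.8, 305.5 and 291.3 in hours 4-6, against 244.8, 260.8 and 213.7 in hours 1-3 (0.34 ± 0.12, limma adjusted p = 0.544).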
